A study of Arabidopsis thaliana with 6 samples.

Results

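The LHCA genes encode the chlorophyll-binding proteins that form the outer antenna of photosystem I, and the 6 members described here, LHCA1 to LHCA6, were taken by their locus identifiers from a table of 32678 Arabidopsis thaliana gene models. LHCA1 is AT3G54890, LHCA2 is AT3G61470, LHCA3 is AT1G61520, LHCA4 is AT3G47470, LHCA5 is AT1G45474 and LHCA6 is AT1G19150. All 6 identifiers were found. In photosystem I, light absorbed by chlorophyll in the antenna is passed to a core of protein subunits that drives electrons from plastocyanin to ferredoxin. The proteins of LHCA1 and LHCA4 bind the core as a pair, those of LHCA2 and LHCA3 as another, and together they form the antenna belt of leaves. LHCA5 and LHCA6 are minor members that link photosystem I to the NADH dehydrogenase-like (NDH) complex, which takes part in cyclic electron flow. Antenna proteins are made from nuclear genes and need chlorophyll to fold and to stay in the thylakoid membrane.

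RNA was sequenced from seeds of a chlorophyll synthase line, with 3 libraries of green seeds of genotype Atchlsyn1-1/CHLSYN and 3 of yellow, non-green seeds of genotype Atchlsyn1-1. Chlorophyll synthase, the enzyme disrupted in this line, joins chlorophyllide to phytol to complete chlorophyll. Per the design text, both kinds segregated in siliques of the mutant, green seeds could photosynthesise and non-green seeds could not, and all samples carry the Atchlsyn1-1 allele; the titles of the non-green libraries nevertheless hold the word photosynthetic. The series asks what photosynthetic organs contribute to seed oil. Growth was at 22 °C under 120 µE m-2 s-1, with days of 16 h and nights of 8 h, and the sources used here leave seed age, plants per library and the kind of mutation unstated. Nothing in the labels says that replicates came from separate plants, so p-values measure the spread between these libraries, which may be technical.

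Total counts ran from 16438639 to 16745514 per library. The chlorophyll synthase gene CHLG (AT3G51820) had 46, 50 and 65 counts in green and 11, 6 and 9 in non-green libraries, so the groups did not overlap, in the direction of the labels. The 5 embryo storage tissue genes summed to 279524 to 290555 CPM in green and 248438 to 258539 CPM in non-green libraries. Of these genes 2 were lower and 2 higher at an adjusted p under 0.05. At that threshold 12.5% of all tested genes were lower and 14.2% higher, which applies to each marker list here. The storage protein genes CRU3 and CRA1 were at -0.23 and -0.11 on the log2 scale, and the embryo regulator gene FUS3 and the oleosin gene OLEO1 at 0.29 and 0.07. Among markers of other seed and fruit tissues, the summed level of 9 seed coat genes was 861 to 915 CPM (counts scaled to the library size) in green and 628 to 631 CPM in non-green libraries, with 4 of 8 tested genes lower and 0 higher. Most of that sum was TT10, with a mean of 725 CPM in green and 532 CPM in non-green libraries. Of the tested seed coat genes not called, TT2 was at 0.94 on the log2 scale and the others were below 0. The 6 silique wall genes summed to 74.5 to 81.6 CPM in green and 78.5 to 95.8 CPM in non-green libraries, with 2 of 4 tested genes higher, 0 lower and FUL at 0 in every library. The called genes were FIL and YAB3, and the groups overlapped for FIL. SHP1 (-0.30) and SHP2 (0.04) were not called, and IND had 0 to 3 counts per library. The 6 endosperm genes summed to 7.03 to 9.96 CPM and 4.09 to 4.55 CPM, with 2 of 3 tested genes lower, 0 higher and PHE1 at 0 in every library. Because whole seeds were extracted, fewer cells of a type and less RNA per cell cannot be told apart, and the part of these tissue differences in the LHCA results was not tested.

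The sequences of the 6 genes are far enough apart to be counted separately. Aligned coding bases were 58.9% to 64.7% identical over the 15 pairs, the longest identical stretch was 20 bases, between LHCA3 and LHCA6, and no 2 members had 30 bases in a row in common. LHCA2 shares part of its sequence with another gene, since 15.4% of its 30-base stretches also occur in AT5G28450 on chromosome 5. The coding sequence of AT5G28450 has 522 bases, against 774 for LHCA2, and 503 aligned bases were 80.5% identical. That gene was listed at 0 counts in every library, and the sources used here leave the treatment of reads with several matches unstated, so the LHCA2 values are uncertain to that extent. The longest coding stretch shared by both genes, which runs from base 649 to base 746 of the LHCA2 coding sequence on chromosome 3, is shown. A read that lies wholly within this stretch matches both genes.

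LHCA2 shared stretch: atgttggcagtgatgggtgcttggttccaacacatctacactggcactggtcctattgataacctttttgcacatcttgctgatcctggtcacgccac

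The upstream sequences of LHCA1 and LHCA4 are shown because the proteins of these genes form a pair while their transcripts had the largest and the smallest change among the abundant members. Sequences are from the RefSeq annotation of TAIR10.1, 5′ to 3′ on the gene's strand and ending at the base before the annotated start. LHCA1 is given at chr3:20341177-20341356 (minus strand, 180 bases, since an exon of the next gene begins beyond it) and LHCA4 at chr3:17495034-17495283 (minus strand, 250 bases). Capitals mark matches, on either strand, to the I-box GATAAG, the G-box CACGTG and the motif CCAATC, which is associated with the GLK factors that act on antenna genes.

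LHCA1 upstream: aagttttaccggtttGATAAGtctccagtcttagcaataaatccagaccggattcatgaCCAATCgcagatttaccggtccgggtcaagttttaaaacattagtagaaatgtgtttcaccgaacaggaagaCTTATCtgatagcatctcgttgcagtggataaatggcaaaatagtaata
LHCA4 upstream: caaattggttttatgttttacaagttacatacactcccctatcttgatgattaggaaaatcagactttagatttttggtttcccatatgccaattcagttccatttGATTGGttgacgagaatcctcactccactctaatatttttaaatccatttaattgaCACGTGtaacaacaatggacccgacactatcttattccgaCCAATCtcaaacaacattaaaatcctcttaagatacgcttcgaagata

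LHCA1 held 2 I-boxes and 1 CCAATC match, and LHCA4 held 1 G-box and 2 CCAATC matches. In the 250 bases before the start, CCAATC was present in 3 of the 6 members (LHCA1, LHCA3 and LHCA4) and in 10.2% of 27443 nuclear promoters. The G-box was present in 1 member and in 6.49% of promoters, the I-box in 1 member and in 12.3%, and AAATATCT, the evening element, in LHCA5 and in 4.79%. LHCA2 and LHCA6 held none of these 4 motifs in that window, of which 230 bases for LHCA6 lie in an exon of the neighbouring gene AT1G19140. The motifs overlap nowhere in the sequences shown, and a match only describes the letters.

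The LHCA1 gene lies on chromosome 3 at 20339504 to 20341176 on the minus strand, with 4 coding exons and a coding length of 726 bases. LHCA2 is at 22745514 to 22747444 on the plus strand of chromosome 3, and LHCA4 at 17493343 to 17495033 on its minus strand. LHCA3, with 3 coding exons, is on chromosome 1 at 22699715 to 22701412, LHCA5 at 17179250 to 17180806 and LHCA6 at 6612630 to 6613972, all on the plus strand. LHCA4 overlaps the gene ATSMC2 (AT3G47460) on the other strand by 53 bases, and LHCA5 overlaps AT1G45545 on the other strand by 192 bases. Whether counting used strand is unstated in these sources, so reads from the overlaps cannot be assigned. ATSMC2 had 8 to 34 counts and AT1G45545 2 to 15 counts per library.

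The 4 abundant antenna genes, LHCA1 to LHCA4, were lower in non-green than in green seeds, where LHCA4 fell by 12.5% and LHCA1 fell by 34.5%, while LHCA5 did not pass the test and LHCA6 was nearly without reads. Thus 4 of the 6 members were lower and 0 were higher at an adjusted p under 0.05, in a comparison where 12.5% of 17239 tested genes were called lower, 14.2% higher and so 26.6% either way (edgeR's quasi-likelihood test with Benjamini-Hochberg adjustment). In numbers, 2149 genes were lower and 2444 higher, and with scaling by total counts alone 1364 and 3266. LHCA1 to LHCA4 were also the members whose scaled levels did not overlap between the groups, each being lower in non-green seeds, as held for 18.1% of tested genes, with 19.2% not overlapping in the higher direction. The median log2 fold change of the 5 tested members was -0.40, against 0.00092 over all tested genes.

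LHCA1, whose protein sits at the end of the belt beside the core subunit PSAG, had 1221, 1200 and 1267 counts in the green and 857, 858 and 838 in the non-green libraries. The lowest green library lay well above the highest non-green library. Its level went from 76.0 ± 1.25 to 49.8 ± 0.356 CPM (SD, n = 3), a log2 fold change of -0.61 ± 0.05 (SE; edgeR adjusted p = 2.32e-16, 95% interval -0.72 to -0.50). In linear terms it fell by 34.5%, and 3.79% of tested genes had a lower log2 fold change. The SD of LHCA1 was 1.65% of the mean in green and 0.716% in non-green libraries. Counting error alone gives 2.85% and 3.43%, so these SDs are narrower than the error of the level.

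LHCA4, whose protein carries the chlorophylls of longest wavelength in the belt, had 1267, 1308 and 1351 counts in the green and 1229, 1153 and 1249 in the non-green libraries. The groups came close, with the highest non-green library just under the lowest green library. Its level went from 80.9 ± 2.35 to 70.8 ± 3.55 CPM (SD, n = 3), a log2 fold change of -0.19 ± 0.05 (SE; edgeR adjusted p = 0.00237, 95% interval -0.30 to -0.09). This was the smallest change among the abundant members, and with scaling by total counts alone LHCA4 was at -0.12 and lost its call (edgeR adjusted p = 0.0899).

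LHCA2 and LHCA3, which encode the other pair of the belt, were close to each other in their change. LHCA2 had 1021, 978 and 1061 counts in green and 783, 828 and 842 in non-green libraries. LHCA3 had 1385, 1339 and 1289 counts in green and 1100, 1064 and 1018 in non-green libraries. For either gene every green library was above every non-green library. LHCA2 went from 63.1 ± 1.80 to 47.9 ± 2.54 CPM (SD, n = 3), a log2 fold change of -0.40 ± 0.06 (SE; edgeR adjusted p = 2.24e-08). LHCA3 went from 82.7 ± 3.51 to 62.0 ± 1.38 CPM (SD, n = 3), a log2 fold change of -0.42 ± 0.05 (SE; edgeR adjusted p = 2.67e-10). They fell by 24.1% and 25.0%, respectively.

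LHCA5 had 111, 148 and 156 counts in green and 161, 141 and 161 in non-green libraries. The groups overlapped, and green replicate 1 was the lowest library. Its level was 8.55 ± 1.48 CPM in green and 9.03 ± 0.713 CPM in non-green seeds (SD, n = 3), a log2 fold change of 0.08 ± 0.14 (SE; edgeR adjusted p = 0.744). The SD was 17.3% of the mean in green and 7.90% in non-green libraries, against 8.50% and 8.05% from counting error alone. The 95% interval of -0.20 to 0.36 spans changes from -12.9% to 28.0%. A change of the size of that of LHCA4 would not be separable from none with this depth and spread. The changes of LHCA1, LHCA2 and LHCA3 lie outside that interval.

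LHCA6 had 1 count in green replicate 3, 1 in non-green replicate 3 and 0 in the other 4 libraries, and it did not pass the filter on low counts. A count of 0 allows a level of up to 0.174 RPKM (reads scaled to gene length and library total) in the shallowest library, from 3 counts of its total, for counting error only. A difference between the groups was not detectable at this depth.

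**Figure D1:**
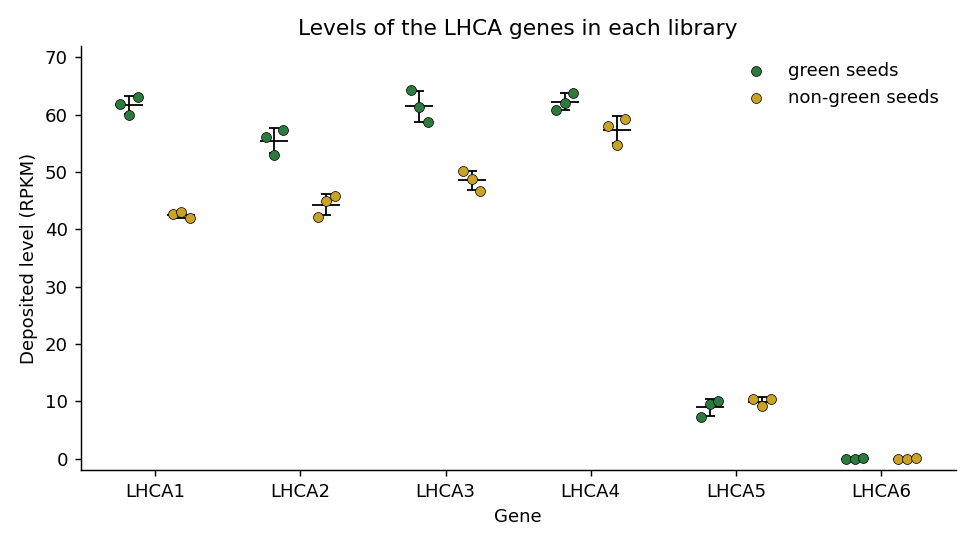
Level of each LHCA gene in RPKM as deposited (vertical axis), with 1 point per library, green for green and yellow for non-green seeds, and black bars for the mean ± SD of 3 libraries. LHCA1 to LHCA4 sit at 53.0 to 64.3 RPKM in green seeds and at 42.0 to 59.3 RPKM in non-green seeds, LHCA5 near 10 RPKM and LHCA6 near 0.

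**Figure D2:**
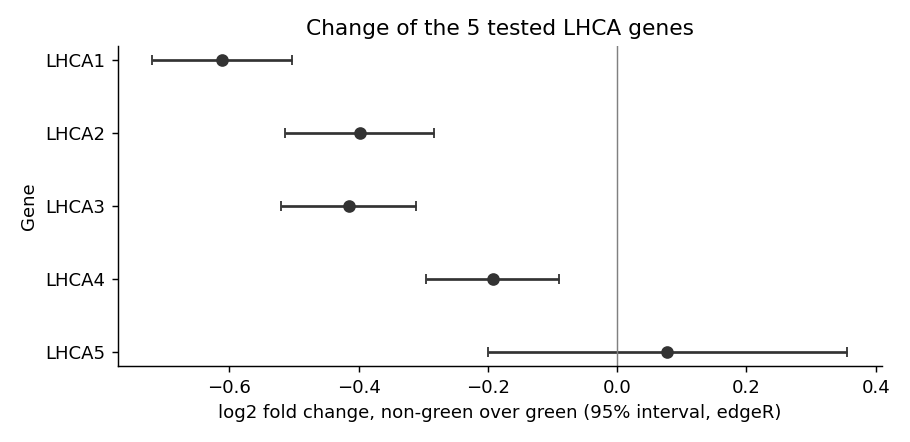
The log2 fold change of non-green over green seeds for the 5 tested LHCA genes (horizontal axis), as points with 95% intervals from edgeR, n = 3 per group. The interval of LHCA1 (-0.72 to -0.50) lies wholly below that of LHCA4 (-0.30 to -0.09), and that of LHCA5 spans 0.

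The authors' deposited table holds a comparison of its own whose settings the sources used here leave unstated. In the authors' deposited table LHCA1 is at -0.61 (adjusted p = 5.54e-26), LHCA3 at -0.42 (4.83e-13), LHCA2 at -0.40 (1.64e-09) and LHCA4 at -0.20 (0.00231) on the log2 scale. In the authors' deposited table LHCA5 is at 0.07 (adjusted p = 0.818) and LHCA6 has no adjusted p.

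With the deposited gene lengths, the abundant members stood at nearly the same level in green seeds and spread apart in non-green seeds. The deposited RPKM of green seeds was 62.2 ± 1.48 for LHCA4, 61.7 ± 1.57 for LHCA1 and 61.5 ± 2.74 for LHCA3 (SD, n = 3), and these 3 genes overlapped from library to library. LHCA2 followed at 55.5 ± 2.21 RPKM and did not overlap LHCA3, and LHCA5 stood far below at 8.97 ± 1.48 RPKM. In non-green seeds LHCA4 led at 57.4 ± 2.36 RPKM, LHCA3 followed at 48.5 ± 1.71 RPKM, and LHCA2 and LHCA1 overlapped at 44.3 ± 1.84 and 42.5 ± 0.495 RPKM (SD, n = 3). LHCA1 thus overlapped LHCA4 and LHCA3 in green seeds and stood below both in non-green seeds. LHCA5 was at 9.98 ± 0.731 RPKM, and LHCA6 at 0.019 RPKM in either group, each from a single read.

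The levels between genes depend on the length that each count is divided by. The RPKM of LHCA2 rests on 1107 bases, while its RefSeq transcript has 1408, and with RefSeq lengths, an alternative chosen after seeing the data, LHCA2 was at 43.6 ± 1.74 RPKM in green and 34.8 ± 1.45 RPKM in non-green seeds (SD, n = 3), below LHCA1 in either group without overlap. With these lengths LHCA1, LHCA4 and LHCA3 again overlapped in green seeds, LHCA1 at 62.6 ± 1.59 RPKM (SD, n = 3), and LHCA4 again led in non-green seeds. The near-equal level of LHCA1 to LHCA4 in green seeds thus rests on the deposited length of LHCA2. Changes between the groups do not depend on length.

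The summed level of LHCA1 to LHCA4 was 236 to 243 RPKM in green and 191 to 194 RPKM in non-green libraries. Of that sum, LHCA1 took 25.4% to 26.0% in green and 21.7% to 22.4% in non-green libraries. LHCA4 took 25.0% to 26.3% in green and 28.6% to 30.6% in non-green libraries. The shares of LHCA1 and LHCA4 moved in opposite directions without overlap, whereas those of LHCA2 (22.4% to 23.6% in green and 21.9% to 23.6% in non-green) and LHCA3 (24.2% to 26.4% and 24.1% to 26.0%) overlapped. As parts of a single sum the shares depend on each other, and the level of LHCA4 itself was lower in non-green seeds. In counts, the 6 members together took 0.0298% to 0.0306% of all counts in green and 0.0243% to 0.0247% in non-green libraries.

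Ratios between 2 members within a library are free of library scaling, and they showed the partners of the LHCA1 and LHCA4 pair moving unequally. The RPKM ratio of LHCA1 to LHCA4 was 1.02, 0.968 and 0.989 in green replicates 1 to 3 and 0.736, 0.785 and 0.708 in non-green replicates 1 to 3. The groups were well apart, and the log2 ratio changed by -0.42 (exact two-sided permutation p = 0.1, the smallest that 3 libraries against 3 allow; 0.111 adjusted over 10 pairs). The ratio of LHCA2 to LHCA3 was 0.873, 0.865 and 0.975 in green and 0.843, 0.922 and 0.980 in non-green libraries. Here the groups overlapped, and the log2 ratio changed by 0.02 (exact permutation p = 0.9). No pair could pass an adjusted threshold in a design of this size.

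Among all 10 pairs of the 5 members with counts in every library, 9 had ratios that did not overlap between the groups. Over all pairs of tested genes with a mean count of at least 100, 46.0% did not overlap. LHCA1 was lower relative to each of the other 4 members, with log2 ratio changes of -0.21 against LHCA2, -0.20 against LHCA3, -0.42 against LHCA4 and -0.70 against LHCA5. LHCA4 was higher relative to each of LHCA1, LHCA2 and LHCA3 and lower relative to LHCA5, by a log2 ratio change of -0.28. These pairs share genes, so they are not independent.

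**Figure D3:**
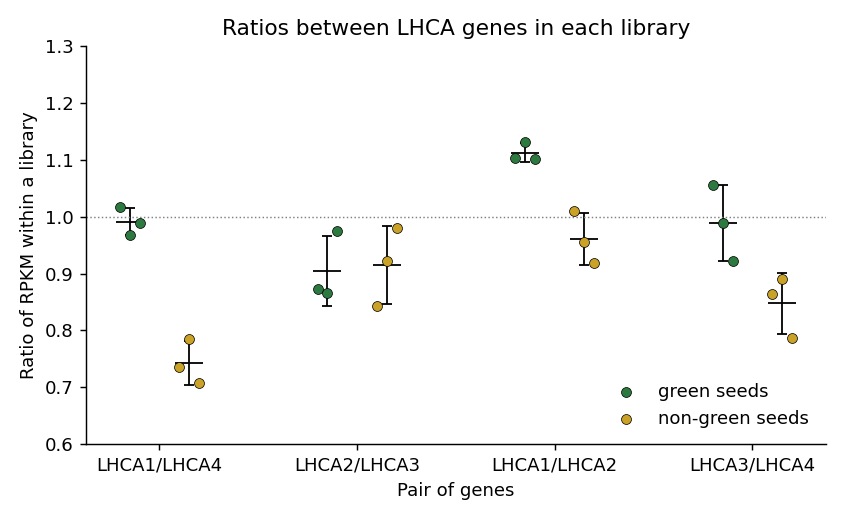
Ratio of the RPKM of 2 LHCA genes within a library (vertical axis) for 4 pairs, with 1 point per library, green for green and yellow for non-green seeds, and black bars for the mean ± SD of 3 libraries; the dotted line marks equal RPKM. The LHCA1 to LHCA4 ratio sits at 0.968 to 1.02 in green and 0.708 to 0.785 in non-green seeds, while the LHCA2 to LHCA3 ratios of the groups overlap.

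The nuclear genes of the photosystem I core, to which the antenna proteins bind, were lower as well. Of 12 genes 10 were lower and 0 higher, against 12.5% lower and 14.2% higher over all tested genes. The median log2 fold change was -0.34. PSAF, for the subunit that docks plastocyanin, had 795, 803 and 821 counts in green and 635, 589 and 582 in non-green libraries, a log2 fold change of -0.50 ± 0.06 (SE; edgeR adjusted p = 4.60e-10). PSAD1 and PSAD2, whose subunits form the ferredoxin docking site, were at -0.46 ± 0.07 (edgeR adjusted p = 6.24e-08) and -0.40 ± 0.07 (1.69e-06). These values lie between those of LHCA4 and LHCA1. With scaling by total counts 7 of the 12 were lower, as were 1364 of all 17239 tested genes.

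Among the 15 genes of the photosystem II antenna, 14 were tested, of which 9 were lower and 2 higher. Their median log2 fold change was -0.24, and over all tested genes 12.5% were lower and 14.2% higher. The higher calls numbered 1 without green replicate 3, non-green replicate 2 or non-green replicate 3. They numbered 1 with DESeq2 and 3 with scaling by total counts. LHCB1.3 and LHCB1.2, for the major trimeric antenna, were at -0.37 ± 0.04 (edgeR adjusted p = 1.83e-13) and -0.39 ± 0.04 (7.42e-13), although reads of near-identical LHCB1 copies can be exchanged between them. LHCB4.3, a minor antenna gene, was higher, with 694, 614 and 701 counts in green and 1112, 1114 and 1080 in non-green libraries (0.64 ± 0.06, edgeR adjusted p = 1.49e-15). No LHCA gene was called higher, but the 2 families were not tested against each other.

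Genes that bring antenna proteins to the thylakoid gave less stable results. Of 5 genes 3 were lower and 0 higher (median log2 fold change -0.52), and leaving out single libraries left 0 to 3 of them lower. Over all tested genes 12.5% were lower and 14.2% higher, which applies to the assembly genes below as well. CAO, for the chloroplast signal recognition particle subunit that binds antenna proteins, was at -0.60 ± 0.20 (edgeR adjusted p = 0.0179) and missed the threshold without green replicate 1 (0.163), non-green replicate 2 (0.0530) or non-green replicate 3 (0.147). CPSRP54, for its partner subunit, was at -0.52 ± 0.16 (edgeR adjusted p = 0.00971) and missed it without green replicate 2 (0.127) and without non-green replicate 3 (0.0648). The groups overlapped for CPSRP54, with 131, 153 and 106 counts in green and 114, 92 and 82 in non-green libraries. ALB3, for the integrase that inserts antenna proteins into the membrane, was at -0.24 ± 0.09 (edgeR adjusted p = 0.0296) and was not called without green replicates 1 (0.0874) or 2 (0.0679), without non-green replicates 2 (0.0729) or 3 (0.0881), or with scaling by total counts (-0.17, 0.175). With DESeq2, CPSRP54 alone of these genes was called (adjusted p = 0.0361), and CAO (0.0549) and ALB3 (0.0596) were not. Of 4 photosystem I assembly genes 1 was higher and 0 lower: PSA2, for a thylakoid lumen zinc finger protein, at 0.53 ± 0.12 (edgeR adjusted p = 0.000183), with 190, 168 and 151 counts in green and 232, 300 and 247 in non-green libraries. The assembly genes Y3IP1 (0.12 ± 0.19, edgeR adjusted p = 0.708) and PYG7 (-0.16 ± 0.12, 0.386) did not pass.

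The nuclear subunit genes of the NDH complex, the partner that LHCA5 and LHCA6 link to photosystem I, were mostly too low to test. Only 7 of 18 had enough counts, of which 3 were higher and 0 lower (median log2 fold change 0.40). Over all tested genes 14.2% were higher and 12.5% lower. Over 11 other fits the higher calls ran from 1 to 4, and without green replicate 2, 1 gene was lower. PNSL2 and PNSB2 had 0 counts in every library. PNSL5, for a lumenal cyclophilin of the complex, had 411, 458 and 531 counts in green and 631, 594 and 609 in non-green libraries (0.31 ± 0.08, edgeR adjusted p = 0.000815). NDHS, for the ferredoxin-binding subunit, was at 0.40 ± 0.14 (edgeR adjusted p = 0.0295) and missed the threshold without green replicates 1 (0.0942) or 3 (0.0808) or non-green replicate 3 (0.159). NDHV was at 0.53 ± 0.19 (edgeR adjusted p = 0.0300) and missed it without green replicates 1 (0.0529), 2 (0.0959) or 3 (0.0505) or non-green replicates 1 (0.0568) or 3 (0.155). With DESeq2, PNSL5 alone of these genes was called. LHCA5 was at 0.08 ± 0.14. Of the tested NDH genes not called, PNSL1 (-0.33) and PNSB4 (-0.48) were below it, and NDHT (0.51) and PNSB5 (0.89) above it. The edgeR interval of LHCA5, -0.20 to 0.36, held the core genes PSAL (-0.14) and PSAH1 (-0.05) as well as PNSL5 (0.31). LHCA5 can therefore not be placed relative to the core or the NDH genes, and its difference from them was not tested.

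Of 4 regulators of antenna genes 1 was higher and 0 lower, where 14.2% of all tested genes were higher and 12.5% lower. HYH, a homolog of the light-signalling factor HY5, had 35, 44 and 33 counts in green and 53, 77 and 83 in non-green libraries (0.85 ± 0.24, edgeR adjusted p = 0.00408), and was just outside the threshold without non-green replicate 3 (0.70, edgeR adjusted p = 0.0509). GLK2, a GLK factor known to activate antenna genes, was at -0.12 ± 0.13 (edgeR adjusted p = 0.576) and HY5 at 0.19 ± 0.15 (0.388), neither of which passed.

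**Figure D4:**
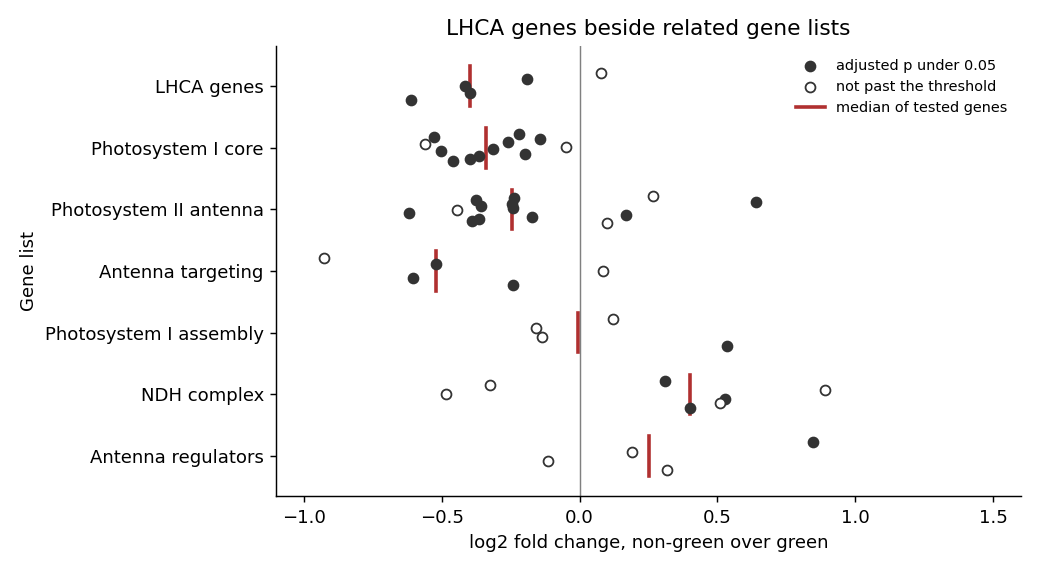
The log2 fold change of non-green over green seeds for each tested gene (horizontal axis) in 7 lists (vertical axis); filled points have an edgeR adjusted p under 0.05, open points do not, and red lines are medians. LHCA (median -0.40) and photosystem I core genes (-0.34) lie mostly left of 0, while NDH complex genes have a median of 0.40.

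By the root mean square difference of centred log2 CPM over the 6 libraries, 5 genes outside the family had the profiles most like that of LHCA1. They were AT3G56260 (difference 0.015), the aldehyde oxidase gene AO4 (0.029), the suberin acyltransferase gene RWP1 (0.032), the oxygenase gene AT1G12010 (0.032) and the ovule and seed coat MADS-box gene STK (0.033). Their Pearson correlations with LHCA1 were 0.994 to 0.999 over 6 libraries, which share the group difference. As they were chosen for this likeness, their own changes are no further result. Within the family, LHCA3 (0.11) and LHCA2 (0.11) were nearest to LHCA1, at ranks 353 and 369 among tested genes, and LHCA4 was at 0.21 and LHCA5 at 0.38.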

How the data were processed

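RNA of 6 seed libraries, 3 green and 3 non-green, was sequenced with an Illumina TruSeq kit from 1 µg of total RNA each, per the labels' protocols. The authors deposited raw counts per gene model; Bowtie 0.12.2 and build TAIR10 are named by the submitters' processing notes, while the counting program and use of strand stay unstated in these sources. The authors also deposited RPKM; of 28608 values with enough digits, 100% returned a whole-number length to within 0.05 bases when the count was divided back. The deposited table further holds the authors' own mean signal, log2 fold changes, test score and p-values.

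Counts were tested with edgeR 4.0.16 in R 4.3.3 (quasi-likelihood, TMM factors of 0.959 to 1.04, filterByExpr, Benjamini-Hochberg over 17239 genes, threshold 0.05). Errors are SD of CPM or RPKM, and SE of log2 fold changes from the F statistic. Alternatives used DESeq2 1.42.0, other scaling, no filter, a replicate term and left-out libraries. Gene models came from TAIR10.1. Ratios were to cover 15 pairs, but LHCA6 had too few counts, which left 10. Named beyond the family were, per list, up to 3 genes with the smallest adjusted p and the best called gene in the minority direction, and 5 genes nearest to LHCA1. The family, lists and rules were chosen with earlier results of these data known.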

Additional observations from a re-analysis of the deposited data

How the results depend on the processing

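Over 11 other fits (scaling, filter, DESeq2, a replicate term and left-out libraries) the log2 fold change of LHCA1 ran from -0.62 to -0.54, of LHCA2 from -0.43 to -0.32 and of LHCA3 from -0.45 to -0.34, and each of these genes was called lower in every fit. LHCA4 ran from -0.23 to -0.12 and lost its call in 1 of them, scaling by total counts alone (-0.12, edgeR adjusted p = 0.0899), which moved the median of all tested genes up by 0.0745. With that scaling 3 of the 6 members were lower, and over all genes the lower calls went from 2149 to 1364 and the higher ones from 2444 to 3266. LHCA5 was called in none, with values of -0.06 to 0.16. Without single libraries LHCA1 ran from -0.62 to -0.60, LHCA4 from -0.23 to -0.16, and called genes from 3968 to 4150, against 4593 with all libraries. With the replicate block 4643 genes were called and LHCA4 was at -0.19. Same-numbered libraries had correlations of deviations of -0.0014 to 0.013, and differently numbered ones of -0.016 to 0.012. No effect shared by number was visible, but this cannot show whether same-numbered libraries came from the same plants or day. LHCA6 had too few counts for a fold change, and the read depth of LHCA5 and its spread between green libraries limit what could be detected there.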
